A study of Mus musculus with 4 samples.

Results

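Luminal progenitor genes were followed in RNA sequencing libraries of sorted basal cells from mouse mammary outgrowths with and without miR-205. The set was named by 9 symbols (Kit, Elf5, Cd14, Aldh1a3, Cyp24a1, Lif, Tspan1, Mfge8 and Ehf), markers of luminal progenitors selected on their normalised counts in these same libraries, having been seen low without miR-205. Of these, 8 matched 1 row each among the 34615 gene rows of the count files, and Lif, a cytokine gene, was not analysed here. Their difference between genotypes is therefore given as a description with no test. The data go against the name of the set for 2 of the 8 genes, Aldh1a3 and Tspan1, whose fitted difference was upward.

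All cells carried the mTmG reporter at Rosa26 and received a Cre adenovirus (Ad-cre). The wild-type group (WT; genotype label WTfl/flmTmGfl/fl cre+) kept miR-205. The knockout group (KO; miR205fl/flmTmGfl/fl cre+) had both alleles flanked by loxP sites, so that Cre removes the microRNA in the cells it reaches and turns the reporter from red to green. Recipients of the treated cells were SCID-Beige mice, 3 weeks old, hosts without working T and B cells that keep their own vessels, fat and myeloid cells. After 8 weeks, epithelial cells from 40 pooled outgrowths were sorted as green basal cells (GFP+ CD24+CD49fhigh), a gate meant to leave out host cells, which lack the reporter. RNA was extracted with the PicoPure kit and libraries were made with NuGEN reagents. Each genotype had 2 libraries, and nothing states that they came from separate animals or pools, so the spread between them may be technical.

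The mammary gland has an outer basal layer and an inner luminal layer. Luminal progenitors are the dividing luminal cells that lack hormone receptors and give rise to milk-secreting alveolar cells. They are recognised by the receptor Kit, by the transcription factor Elf5, which drives alveolar fate, and by surface and enzyme markers such as Cd14 and Aldh1a3. A basal sort is meant to leave these cells out, so their transcripts in it can come from basal cells that make a little of them or from luminal cells carried along. In bulk RNA, fewer cells of a type and less RNA per cell cannot be told apart.

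miR-205-5p, the main strand of the microRNA removed in KO, is shown because its seed (bases 2 to 8, in capitals) fixes which transcripts it can pair with. The sequence is from RefSeq, GRCm38.p6, at chr1:193507503-193507524 on the minus strand.
miR-205-5p: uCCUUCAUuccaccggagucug
A match to this seed is ATGAAGG in the transcript. The longest annotated 3' untranslated region (GENCODE M21) held 1 or more such matches in 2 of the 9 symbols, Tspan1 with 1 and Ehf with 2, against 11.1% of 21020 protein-coding genes. None of these 3 matches was followed by the A that makes the longest class of site. The first match of each is shown with its flanks, the seed match in capitals.
Tspan1: ccactagtggATGAAGGcacttacagc
Ehf: tttatgtaccATGAAGGgacaaagaaa
A match is a description of letters and does not show that the site is used. In KO replicate 1 both genes were below the WT mean, Tspan1 at 56.2% and Ehf at 55.7% of it. In KO replicate 2 they lay on opposite sides of the WT libraries, Tspan1 above and Ehf below.

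Depth was similar across libraries, from 47953972 to 60030932 gene counts. Basal markers were abundant. Krt5, the basal keratin, had 1219 and 1218 CPM (normalised counts relative to library size) in WT replicates 1 and 2. In KO replicates 1 and 2 it had 1772 and 1511 CPM, and the p63 gene Trp63 had 900.1 to 1308 CPM across the libraries. Luminal transcripts were present as well, with the luminal keratin Krt8 at 244.6 to 356.0 CPM. The purity of the sort was not tested. KO replicate 2 stood apart from the rest. Only 12679 genes had a count there, against 18027 to 18897 in the other 3 libraries, and its correlation of log2(CPM + 1) with them over 15364 tested genes was 0.893 to 0.899, against 0.972 to 0.981 among the others. The values of the 8 genes are therefore given for each KO library on its own. Mir205 itself had 0 counts in each of the 4 libraries, which allows up to 0.0477 to 0.0719 CPM (3 counts, counting error only), so it gave no check of the labels.

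Kit, Elf5 and Cyp24a1 were lower in both KO libraries than in both WT libraries. Kit (ENSMUSG00000005672) encodes the receptor of stem cell factor and is a surface marker of luminal progenitors. It had 15.6 and 27.6 CPM in WT replicates 1 and 2 and 6.90 CPM in KO replicate 1, beside 1.44 CPM in KO replicate 2. The libraries of the genotypes did not overlap, and the KO libraries stood at 32.0% and 6.66% of the WT mean (fitted log2 fold change -2.37 ± 1.01, SE, n = 2 against 2). Counting error was small beside these gaps, with exact 95% Poisson intervals of 14.6 to 16.7 CPM in WT replicate 1 and 6.27 to 7.58 CPM in KO replicate 1. Among 2133 other genes at a WT mean of 20 to 50 CPM, 2 were as low as Kit or lower in KO replicate 1 relative to WT, while 76 (3.56%) were in KO replicate 2. Such ranks, here and for the other genes of the set, describe values that chose the genes and support nothing further.

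Elf5 (ENSMUSG00000027186), the alveolar ETS-family transcription factor, had 3.05 and 4.79 CPM in WT replicates 1 and 2 and 1.495 CPM (94 counts) in KO replicate 1. In KO replicate 2 it had 0 counts, at least 54.5-fold lower than the WT mean when set against 3 counts in that library. Cyp24a1 (ENSMUSG00000038567), the mitochondrial enzyme that inactivates vitamin D, had 3.33 and 2.87 CPM in the WT pair and 1.86 CPM (117 counts) in KO replicate 1, beside 0 counts in KO replicate 2, at least 43.2-fold lower by the same floor. Both genes were expressed at a WT mean of 1 to 5 CPM, where 40.1% of 3507 tested genes had no count in KO replicate 2 and 0.228% had none in KO replicate 1. The zeros of Elf5 and Cyp24a1 were therefore shared with many genes of like abundance in that library. In KO replicate 1, 491 of 3506 other genes in this range were as low as Elf5 or lower relative to WT, and 29.2% were as low as Cyp24a1. Fitted log2 fold changes were -2.38 ± 2.39 for Elf5 and -1.73 ± 2.40 for Cyp24a1, with errors as large as the differences.

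**Figure D1:**
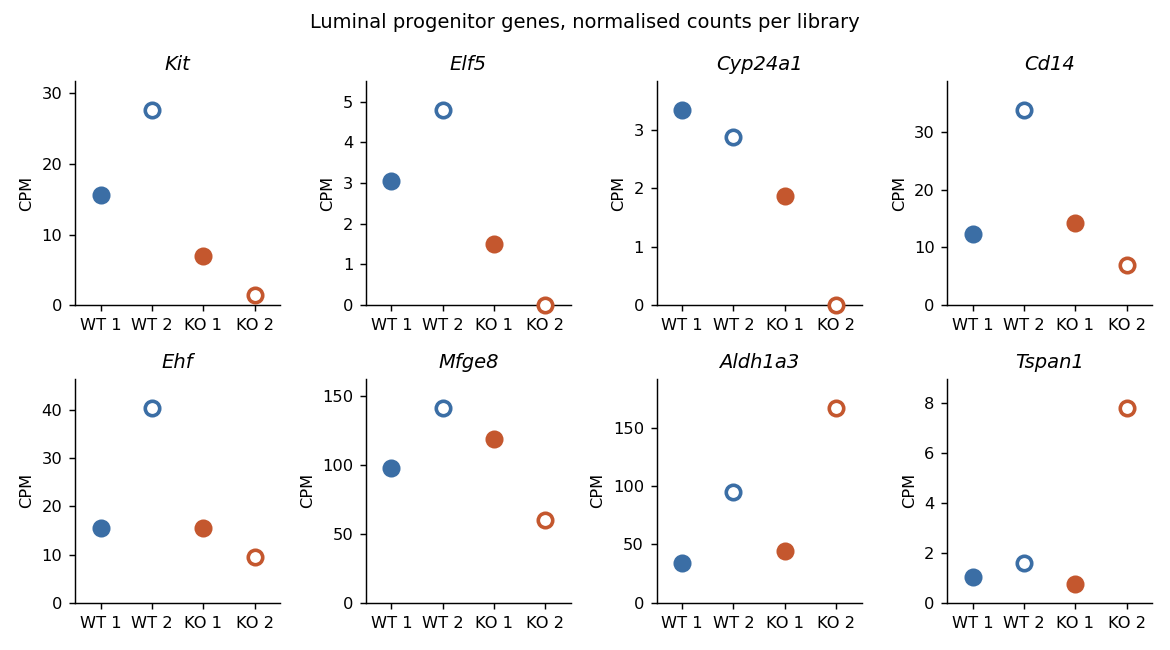
Normalised counts (CPM, linear axes from 0, each gene on its own scale) of the 8 genes in the 4 libraries. Each point is 1 library, blue for WT and orange for KO, filled for replicate 1 and open for replicate 2. Kit, Elf5 and Cyp24a1 were below WT in both KO libraries, whereas Aldh1a3 and Tspan1 were highest in KO replicate 2.

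Kit, Elf5 and Cyp24a1 were below WT in both KO libraries. No upstream window was found for Cyp24a1 in the reference used, so the upstream sequences of Kit and Elf5 are shown. Each is the 250 bases before the first annotated start of 2 in RefSeq (GRCm38.p6), on the plus strand, with motif matches in capitals.
Kit, chr5:75574737-75574986: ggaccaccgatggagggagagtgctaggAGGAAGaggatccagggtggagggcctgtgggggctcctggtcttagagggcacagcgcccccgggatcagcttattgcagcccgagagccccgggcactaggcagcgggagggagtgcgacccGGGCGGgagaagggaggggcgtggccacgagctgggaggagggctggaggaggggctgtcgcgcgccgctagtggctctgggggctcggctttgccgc
Elf5, chr2:103411848-103412097: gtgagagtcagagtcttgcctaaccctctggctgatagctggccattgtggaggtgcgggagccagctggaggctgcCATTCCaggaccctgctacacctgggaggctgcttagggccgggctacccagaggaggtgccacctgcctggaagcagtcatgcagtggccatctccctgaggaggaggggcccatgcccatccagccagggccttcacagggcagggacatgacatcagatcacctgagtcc
Windows of 300 bases, with 50 bases after the start, were searched on both strands for AGGAAG and CGGAAG (ETS factors), GGAATG (TEAD factors, the DNA-binding partners of YAP), CTTTGA (TCF/LEF factors of the Wnt pathway), TTCNNNGAA (STAT factors), AGGTCA (nuclear receptors), TATAAA and GGGCGG. Kit held AGGAAG at position -222 from its start and GGGCGG at -98, motifs present in 35.4% and 35.7% of 32851 windows. Elf5 held GGAATG, read on the opposite strand as CATTCC, at position -173, a motif present in 14.7% of windows. The motifs partly overlap in their letters, and the 2 windows shared none of the 8.

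Cd14, Ehf and Mfge8 were below both WT libraries in KO replicate 2 only. Cd14 (ENSMUSG00000051439), the co-receptor that hands bacterial lipopolysaccharide to Tlr4, had 12.2 and 33.7 CPM in WT replicates 1 and 2 and 14.3 CPM in KO replicate 1, beside 6.88 CPM in KO replicate 2. Ehf (ENSMUSG00000012350), an epithelial ETS factor, had 15.5 and 40.4 CPM in the WT pair and 15.6 CPM in KO replicate 1, beside 9.61 CPM in KO replicate 2. Mfge8 (ENSMUSG00000030605), the milk fat globule protein that bridges dying cells to phagocytes, had 97.8 and 141.5 CPM in the WT pair and 118.8 CPM in KO replicate 1, beside 60.2 CPM in KO replicate 2. For each of the 3 genes KO replicate 1 lay between the WT libraries on the scaling used here, though Ehf in that library was just below both WT libraries with DESeq2 size factors or with total counts. Against the WT mean, KO replicate 2 stood at 29.9% for Cd14, 34.4% for Ehf and 50.3% for Mfge8. Fitted log2 fold changes were -1.12 ± 0.80, -1.15 ± 0.70 and -0.42 ± 0.42.

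Ehf and Elf5 have no protein-coding gene between them on chromosome 2 in the RefSeq annotation. In KO replicate 1 Elf5 stood at 38.1% and Ehf at 55.7% of the WT mean, though Ehf was near its level in WT replicate 1 (15.6 and 15.5 CPM). The fitted log2 fold changes of -2.38 ± 2.39 and -1.15 ± 0.70 overlapped within their errors. A difference in size between the neighbours was not tested.

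Aldh1a3 and Tspan1 went the other way in KO replicate 2. Aldh1a3 (ENSMUSG00000015134), which makes retinoic acid from retinaldehyde and is used to mark luminal progenitors, had 34.3 and 94.4 CPM in WT replicates 1 and 2 and 44.8 CPM in KO replicate 1, beside 166.7 CPM in KO replicate 2. KO replicate 1 lay between the WT libraries and KO replicate 2 was 2.59 times the WT mean. Tspan1 (ENSMUSG00000028699), a tetraspanin of the epithelial surface, had 1.05 and 1.61 CPM in the WT pair and 0.748 CPM in KO replicate 1, beside 7.81 CPM in KO replicate 2. The KO libraries thus lay on opposite sides of WT, with KO replicate 2 at 5.87 times the WT mean. At like abundance, 4.15% of other genes were as high as Aldh1a3 or higher in KO replicate 2 relative to WT, and 5.31% as high as Tspan1. The fitted log2 fold changes were 0.72 ± 0.78 and 1.68 ± 1.59. Without KO replicate 2 both turned negative, to -0.52 for Aldh1a3 and -0.83 for Tspan1.

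**Figure D2:**
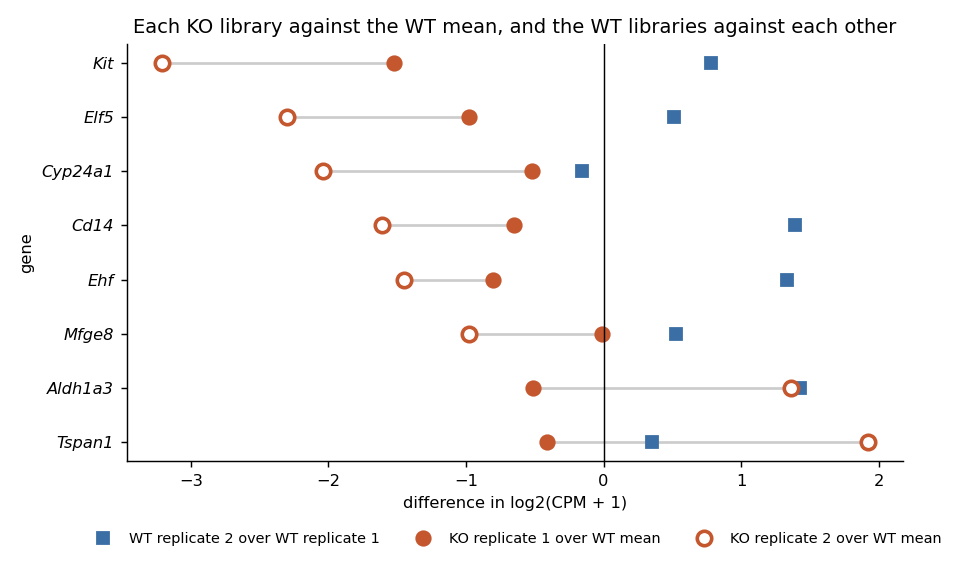
Differences in log2(CPM + 1) for each gene: KO replicate 1 (filled circles) and KO replicate 2 (open circles) against the WT mean, and WT replicate 2 against WT replicate 1 (squares). KO replicate 1 ran from -1.52 for Kit to -0.01 for Mfge8, and KO replicate 2 from -3.21 for Kit to 1.92 for Tspan1.

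Across the set, 6 of 8 genes had a fitted difference below 0 (57.2% of all tested genes) and 2 above it, with a median log2 fold change of -1.14 against -0.14 over all 15364 tested genes. Both KO libraries were below both WT libraries in 3 of 8 genes (19.2% of all tested genes). With DESeq2 size factors or total counts Ehf joined them. KO replicate 1 was below both WT libraries in 4 of 8 genes (30.9% of tested genes) and above both in 0 (31.4%). KO replicate 2 was below both in 6 of 8 (54.9%) and above both in 2 (34.2%). These counts describe how the genes were picked and carry no further weight. In the edgeR quasi-likelihood test over all genes, 0 genes were called higher (0.0% of those tested) and 0 lower (0.0%) at an adjusted p under 0.05 (Benjamini-Hochberg). Without the adjustment 147 genes (0.957%) were under 0.05, and DESeq2 called 4 genes. The count depended on KO replicate 1. Without that library, and with the lone KO library assumed to vary like the WT pair, it was no longer 0.

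**Figure D3:**
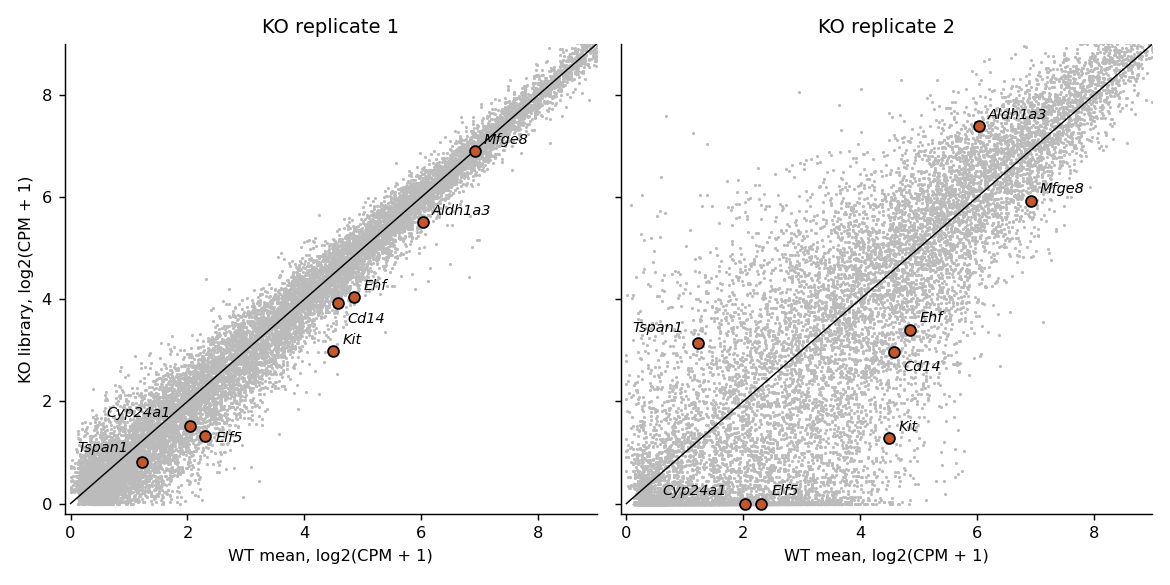
Level of the tested genes (grey) and of the 8 genes (orange) in each KO library against the WT mean, both as log2(CPM + 1), with the line of equality. Axes stop at 9, so the most abundant genes are not shown. Kit lies at the lower edge of the cloud for KO replicate 1. The cloud for KO replicate 2 is wide, with Elf5 and Cyp24a1 on its zero line.

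The WT libraries differed from each other in the same genes. WT replicate 2 exceeded WT replicate 1 in 7 of 8, the exception being Cyp24a1, against 49.1% of all tested genes. The ratio was 2.75 for Aldh1a3, 2.75 for Cd14, 2.61 for Ehf, 1.77 for Kit, 1.57 for Elf5, 1.54 for Tspan1 and 1.45 for Mfge8. Among genes of like abundance, 0.332% had a ratio as high as that of Aldh1a3, 0.75% as high as Cd14 and 0.891% as high as Ehf. This contrast has 1 library on each side and no test. It bears on the genotype comparison, since without WT replicate 2 the median fitted difference of the 8 genes was -0.25, and without WT replicate 1 it was -1.64. Without KO replicate 2 the median was -0.78.

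Per kilobase of annotated exon, the WT mean was highest for Mfge8, at 25.5 CPM per kb, and lowest for Tspan1, at 0.571 CPM per kb. In between, Aldh1a3 had 7.43 and 20.5 CPM per kb in the WT libraries, Cd14 7.07 and 19.5 and Ehf 2.77 and 7.24, in this order of means. Kit followed with a mean of 2.42 CPM per kb, then Cyp24a1 with 0.872 and Elf5 with 0.667. The ranges of neighbours in this order overlapped between the WT libraries except for Mfge8 above Aldh1a3 and Kit above Cyp24a1. Summed, the 8 genes made up 182.9 and 346.9 CPM in the WT pair against 204.5 and 252.6 CPM in the KO pair, most of it Mfge8 and Aldh1a3. Without these 2 the sums were 50.75 and 111.0 CPM in the WT pair and 40.81 CPM in KO replicate 1, beside 25.73 CPM in KO replicate 2.

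Other luminal progenitor genes did not share one direction. Of 12 tested genes outside the set, 6 had a fitted difference below 0 and 6 above it, with 0 called and a median log2 fold change of -0.18. The 3 most abundant parted ways. Itga2, the collagen-binding integrin subunit of progenitors, had 275.1 and 313.4 CPM in the WT pair against 132.0 and 126.7 CPM in the KO pair, an alike level in both KO libraries (log2 fold change -1.19 ± 0.21, unadjusted edgeR p of 0.00232, not past the adjusted test). Plet1, a surface protein of progenitors, had 1208 and 1549 CPM in the WT pair against 1058 and 1856 CPM in the KO pair. Lcn2, an iron-sequestering defence protein, had 925.5 and 1102 CPM in the WT pair against 1254 and 1456 CPM in the KO pair. WT replicate 2 exceeded WT replicate 1 in 10 of these 12 genes.

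Markers of other mammary cells were read in the same libraries, with 0 genes called in any list. Pan-luminal genes had 10 of 13 fitted differences above 0 (median 0.18), but the KO libraries differed in direction. Their median difference in log2(CPM + 1) from the WT mean was -0.19 in KO replicate 1 and 0.37 in KO replicate 2. Among the most abundant, the adhesion genes Cdh1 and Epcam had log2 fold changes of 0.10 ± 0.20 and 0.15 ± 0.27, and the luminal keratin Krt8 of 0.10 ± 0.25. WT replicate 2 exceeded WT replicate 1 in 11 of these 13, as in most of the 8 genes, whereas among basal genes it did so in 4 of 14. Basal genes were 8 of 14 above 0 (median 0.09), with the contractile genes Acta2 and Myh11 at 0.31 ± 0.28 and -0.17 ± 0.25 and the integrin chain Itga6 at 0.28 ± 0.17.

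Hormone-sensing luminal genes had 4 of 11 fitted differences above 0 (median -0.32). The prolactin receptor Prlr had 21.8 and 100.6 CPM in the WT pair and 29.2 CPM in KO replicate 1, beside 210.0 CPM in KO replicate 2, and the pioneer factor Foxa1 had 13.1 and 6.54 CPM in the WT pair and 9.43 CPM in KO replicate 1, beside 89.1 CPM in KO replicate 2. Tbx3, a T-box factor, had a log2 fold change of 0.55 ± 0.46. Milk genes had 7 of 9 above 0 (median 0.47). The casein gene Csn3 had 29.3 and 101.0 CPM in the WT pair and 31.5 CPM in KO replicate 1, beside 148.8 CPM in KO replicate 2, while Xdh and Plin2, genes of milk fat secretion, had log2 fold changes of 0.63 ± 0.57 and 0.24 ± 0.47. Prlr and Csn3 shared the library order of Aldh1a3, lowest in WT replicate 1 and highest in KO replicate 2. That order was not particular to these lists, since the pan-luminal gene Epcam and the immune gene Cd74 had it too.

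Vessel and stromal markers also differed between libraries. The 7 tested endothelial genes, all with a fitted difference below 0, summed to 119.4 and 213.9 CPM in the WT pair and 171.4 CPM in KO replicate 1, beside 81.6 CPM in KO replicate 2. In this sum WT replicate 2 was highest and KO replicate 2 lowest, as for Kit, Elf5, Cd14, Ehf and Mfge8. Gene by gene the order did not always hold: Cdh5 and Tek were lowest in WT replicate 1, and Kdr and Tie1 were highest there. The vessel genes Cdh5 and Vwf had log2 fold changes of -0.08 ± 0.54 and -0.44 ± 0.49, and Eng had 16.6 and 31.9 CPM in the WT pair and 20.3 CPM in KO replicate 1, beside 3.28 CPM in KO replicate 2. Pericyte genes (6 tested, 2 above 0) summed to 80.05 and 191.4 CPM in the WT pair against 111.1 and 108.2 CPM in the KO pair, with Rgs5 at -0.67 ± 0.57 and Abcc9 at -0.04 ± 0.73 on the log2 scale. Notch3, also counted among the other luminal progenitor genes, had 8.73 and 18.7 CPM in the WT pair and 7.82 CPM in KO replicate 1. In KO replicate 2 it had 51.0 CPM, a large part of the pericyte sum of 108.2 CPM. Rgs5 had 53.6 and 130.4 CPM in the WT pair and 75.9 CPM in KO replicate 1, beside 39.5 CPM in KO replicate 2. Pdgfrb, Cspg4 and Kcnj8 had 0 counts in KO replicate 2, and Abcc9 lay between the WT libraries there.

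Fibroblast genes (8 tested, 5 above 0) summed to 578.8 and 636.7 CPM in the WT pair against 686.2 and 919.0 CPM in the KO pair. The matrix gene Dcn had a log2 fold change of 0.94 ± 0.29 and Fbn1 of 0.16 ± 0.20, and Col6a1 had 47.2 and 46.4 CPM in the WT pair against 75.6 and 131.8 CPM in the KO pair. Dcn and Col6a1 were above both WT libraries in each KO library, as were 13.2% of all tested genes. Their unadjusted edgeR p was 0.0221 and 0.0279, and none of the 3 passed the adjusted test. Immune genes (7 tested of 9, 4 above 0) summed to 72.07 and 167.8 CPM in the WT pair against 112.6 and 325.1 CPM in the KO pair, most of it Cd74, and the leukocyte gene Ptprc had 3.32 and 3.33 CPM in the WT pair and 2.69 CPM in KO replicate 1, beside 25.0 CPM in KO replicate 2. H2-Aa had a log2 fold change of -0.17 ± 0.97. Of 10 markers of mast cells and melanocytes, which also express Kit, 2 were tested (Tyr and Pmel, at most 4.05 CPM). Tpsb2, Fcer1a, Ms4a2 and Dct had 0 counts throughout. The mast cell protease genes Mcpt4 and Cpa3 had 1.19 and 0.319 CPM in WT replicate 2, where Kit was highest, and 0 elsewhere. Of adipocyte markers only Fabp4, which capillaries also express, was tested, with 14.8 and 28.3 CPM in the WT pair against 32.2 and 138.7 CPM in the KO pair. The part of these cells in the levels of the 8 genes was not tested.

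**Figure D4:**
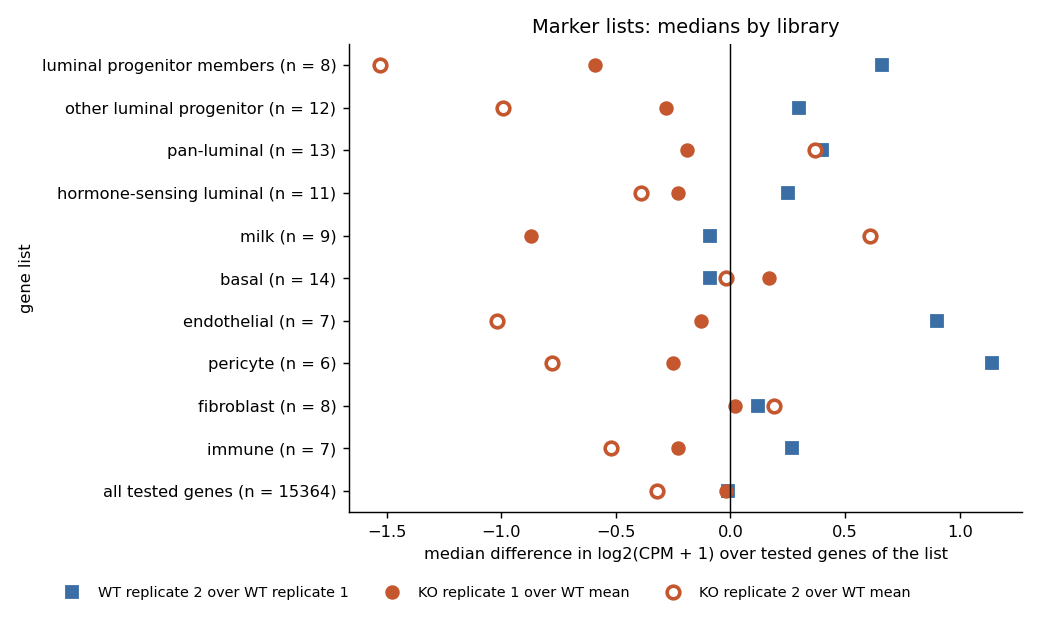
Median difference in log2(CPM + 1) over the tested genes of each marker list, for KO replicate 1 (filled circles) and KO replicate 2 (open circles) against the WT mean and for WT replicate 2 against WT replicate 1 (squares); n is the number of tested genes. The 8 luminal progenitor genes had medians of -0.59 (KO replicate 1) and -1.53 (KO replicate 2), against -0.02 and -0.32 over all tested genes.

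Related genes were read from 8 lists, holding pathway partners of Kit, Lif, Cd14, Aldh1a3, Cyp24a1 and Mfge8, the ETS family of Elf5 and Ehf, and the tetraspanin family of Tspan1. Of 107 tested genes in these lists, 54 had a fitted difference above 0 and 53 below it, with 0 called, 1 at an unadjusted p under 0.05 (Cd9) and a median log2 fold change of 0.00. Kit signaling genes were 7 of 12 above 0 (median 0.04). Kitl, the ligand of Kit, was abundant at 463.8 and 436.5 CPM in the WT pair against 615.1 and 489.6 CPM in the KO pair (log2 fold change 0.30 ± 0.21). The adaptor phosphatase Ptpn11 had 198.8 and 198.9 CPM in the WT pair against 212.0 and 212.2 CPM in the KO pair, and the ubiquitin ligase Cbl 202.8 and 227.1 CPM in the WT pair against 186.1 and 174.4 CPM in the KO pair. Kitl and Ptpn11 were above both WT libraries in each KO library and Cbl was below both, and none passed the test. Over all tested genes, 13.2% were above both in each KO library and 19.2% below both.

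The ETS family was 8 of 17 above 0 (median -0.01). Its abundant members Ets2, Elk4 and Elf1 had fitted log2 fold changes of 0.31 ± 0.19, 0.23 ± 0.24 and 0.15 ± 0.20. Elf3, another epithelial ETS factor, was also counted among the other luminal progenitor genes. It had 7.75 and 11.3 CPM in the WT pair and 9.48 CPM in KO replicate 1. In KO replicate 2, the library in which Elf5 had no count, Elf3 had 25.4 CPM.

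Partners of Cd14 in lipopolysaccharide sensing were 7 of 15 above 0 (median -0.06). Tlr4, the receptor, had 15.7 and 15.9 CPM in the WT pair against 8.84 and 3.57 CPM in the KO pair, below WT in both libraries (log2 fold change -1.35 ± 0.81, not past the test). Its co-factor Ly96 had 5.09 and 11.4 CPM in the WT pair and 8.73 CPM in KO replicate 1, beside 0.335 CPM in KO replicate 2. Downstream, Nfkb1 had a log2 fold change of -0.06 ± 0.20, Traf6 of 0.06 ± 0.32 and Rela of 0.68 ± 0.41.

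Retinoid genes, the partners of Aldh1a3, were 8 of 15 above 0 (median 0.07). Rdh10, which makes the retinaldehyde that Aldh1a3 uses, had 69.8 and 70.0 CPM in the WT pair and 64.1 CPM in KO replicate 1, beside 159.2 CPM in KO replicate 2. Rarg, a retinoic acid receptor, had 21.6 and 20.4 CPM in the WT pair and 24.2 CPM in KO replicate 1, beside 112.0 CPM in KO replicate 2. The high values of Rdh10 and Rarg were those of KO replicate 2 alone. Aldh1a3 was highest there too, but it also differed within the WT pair, with 34.3 and 94.4 CPM.

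Vitamin D genes were 4 of 7 above 0 (median 0.06). Vdr, the receptor through which vitamin D induces Cyp24a1, had 181.9 and 201.8 CPM in the WT pair against 228.2 and 170.5 CPM in the KO pair, with the KO libraries on either side of WT. Its partner Rxra had a log2 fold change of 0.59 ± 0.54, and the disulfide isomerase Pdia3 of -0.08 ± 0.23. LIF family genes were read although Lif was not: 5 of 11 were above 0 (median -0.05). Lifr and Il6st, the 2 receptor chains, had log2 fold changes of 0.05 ± 0.20 and -0.07 ± 0.17, and Osmr and Jak1 had 0.09 ± 0.17 and -0.05 ± 0.18.

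Mfge8 partners were 5 of 8 above 0 (median 0.01), with the integrin chains Itgav at 0.00 ± 0.19 and Itgb5 at 0.22 ± 0.46, the phagocytic receptor Axl at 0.40 ± 0.25 and Anxa5 at 0.01 ± 0.24 on the log2 scale. Tetraspanins were 11 of 23 above 0 (median -0.02). Cd9 had 334.2 and 341.8 CPM in the WT pair against 480.4 and 457.3 CPM in the KO pair (log2 fold change 0.47 ± 0.18, unadjusted edgeR p of 0.0472, not past the adjusted test). Cd63 and Cd151 had 0.45 ± 0.20 and 0.26 ± 0.25, and Cd151 in KO replicate 2 lay between the WT libraries.

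The 8 genes had no single profile. For each gene log2(CPM + 1) was centred on its own mean over the 4 libraries, and the average of the 8 profiles ran 0.01 and 0.78 in WT and -0.21 and -0.57 in KO. Its most marked feature was the height of WT replicate 2. The root mean square distance of a gene to this average was smallest for Ehf (0.241), Mfge8 (0.280) and Cd14 (0.317) and largest for Tspan1 (1.24), Aldh1a3 (1.07) and Kit (0.898). Of 8341 other protein-coding genes at 5 CPM or more in WT, 117 were nearer to the average than Ehf and 7859 were nearer than Tspan1. The 5 nearest were Lcp1, which encodes an actin-bundling protein of leukocytes (0.015), Gm527 (0.077), Acpp (0.086), Fbln7 (0.090) and Kri1 (0.093). Lcp1 had 8.30 and 14.9 CPM in the WT pair against 7.13 and 5.39 CPM in the KO pair.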

How the data were processed

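The deposited values are raw read counts, whole numbers by Ensembl identifier. TopHat2 (2.02), HTSeq and build NCBIM37 (mm9) are named in the submitters' processing notes. Strand setting and annotation release: not given in the sources used here. Thus antisense or overlapping genes cannot be told apart. The 5 summary rows of each file were left out (57.59% to 61.52% of reads were assigned to no feature). Symbols matched 86.9% of rows, and exon lengths and 3' untranslated regions came from GENCODE M21, a later build (GRCm38).

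All 4 libraries were fitted with edgeR 4.0.16 in R 4.3.3 (filterByExpr, TMM, quasi-likelihood test, genotype as the only term). Benjamini-Hochberg adjusted p-values covered all 15364 tested genes, and all 8 genes of the set passed the count filter. CPM values are scaled by TMM. SE is the fitted log2 fold change over the root of its F statistic. Differences by library use log2(CPM + 1). Alternatives were DESeq2 1.42.0, other scalings and filters, a replicate block, another prior count and each library left out. The procedure was tested on simulated counts. Tables were made with Python 3.11.15. Named partner and marker genes are the 3 most abundant of each list, any gene past the test, and a fixed list of receptors and ligands with the ETS factor Elf3; the 5 genes nearest in profile are also named. Of these, 1 gene that the rule names is not reported here. Krt5, Trp63, Mcpt4, Cpa3, Kdr, Tie1, Tek and the markers at 0 fall outside that rule and were picked with values in view. The genes of the set and the lists were chosen with earlier results of these data known. An exact permutation test of 2 against 2 libraries cannot go below 0.333 and was not used.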

Additional observations from a re-analysis of the deposited data

How the results depend on the processing

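The count of called genes was 0 with DESeq2 size factors, total-count scaling, either filter and the replicate block, and 4 with DESeq2's own test. Leaving out 1 library gave 0 to 5724 called genes, 0 to 5 lower among other luminal progenitor genes and 0 to 39 genes of the partner and family lists. The highest value of each came without KO replicate 1, where 8 other luminal progenitor genes were called in either direction. That fit leaves KO replicate 2 as the only KO library, assumed to vary like the WT pair. The median log2 fold change of the 8 genes was -1.14, ran from -1.65 to -0.25 with 1 library left out (-0.25 without WT replicate 2), and from -1.21 to -1.03 under the other settings. Total-count scaling moved the median of all genes from -0.14 to -0.24. Leaving out KO replicate 1, the fit that gave -1.65 for the 8 genes, moved the median of all genes to -0.71. With the replicate block the median was -1.03 for the 8 genes and -0.25 for all genes, and no call changed. Libraries of the same number did not deviate together (r = 0.023), so the number was not taken as a pairing. Of the 8 genes, 6 kept their sign in all 9 alternatives run, and Aldh1a3 and Tspan1 in 8 of 9, the exception being the fit without KO replicate 2. A kept sign did not mean a kept size. Mfge8 was at -0.01 without KO replicate 2. Without WT replicate 2, Mfge8 was at -0.13, Cd14 at -0.21 and Ehf at -0.30. Fits of Elf5 and Cyp24a1 reached -10.69 and -10.35 without KO replicate 1, where the lone KO library had 0 counts, so these values depend on the prior count. The other 6 genes had 47 or more counts in every library.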
